A study of Rattus norvegicus with 4 samples.

Results

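Hox genes encode the homeodomain transcription factors that give cells along the body axis their position. The 22 Hox genes described here were those for which at least 1 array probe carried an accession that maps, in the RefSeq table of the rat, to a symbol beginning with Hoxa, Hoxb, Hoxc or Hoxd and a number. They were 22 of 39 Hox genes in that table and 22 of 15715 genes with a symbol on the array. By cluster, 6 of 11 Hoxa genes, 6 of 10 Hoxb genes, 3 of 9 Hoxc genes and 7 of 9 Hoxd genes had a matched probe. By paralogue number, the matched genes were 5 of groups 1 to 3, 8 of groups 4 to 8, 2 of group 9 and 7 of groups 10 to 13. No probe was matched for Hoxa3, Hoxa4, Hoxa5, Hoxa9, Hoxa10, Hoxb1, Hoxb2, Hoxb5, Hoxb6, Hoxc6, Hoxc8, Hoxc9, Hoxc10, Hoxc11, Hoxc13, Hoxd8 and Hoxd11, which are not analysed here.

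RNA of the spinal dorsal horn, the part of the cord that receives sensory input, was measured on 4 Agilent 2-colour arrays. All rats were male and 6 weeks old, and the samples were of day 10. Per the labels, 2 arrays carried RNA of rats given oxaliplatin, a platinum chemotherapy drug, and 2 carried RNA of rats given vehicle, in the Cy5 channel. The Cy3 channel of every array carried, per the labels, dorsal horn RNA of untreated rats. Strain, dose, the segment of cord dissected and whether an array held RNA of 1 rat or of a pool are not given in the sources used here. Labels call the arrays of a group biological replicates, and p-values measure only the spread between these arrays.

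Several facts of the arrays bear on every value below. The groups lay on separate slides, so slide and group cannot be told apart, and with no dye swap the dye and the source of the RNA cannot be told apart either. The share of probes well above background was 82.6% to 85.4% in Cy5. In Cy3 it was lowest on oxaliplatin replicate 2, at 76.8%, with 83.1% to 88.1% elsewhere, and the same array had a median raw Cy3 signal of 283.5 against 494 to 564. The extract protocol names Cy3 labelling alone, and most of the forebrain and ganglion genes looked at were higher in Cy5, labelled as dorsal horn. Of 12 tested transcription factors of rostral brain, 9 were called higher in Cy5 and 2 in Cy3, Otx1 (mean ratio -0.55) and Otx2 (-0.26). Of 13 ganglion and nerve genes, 12 were called higher in Cy5 and 1 in Cy3. Over all genes the shares were 28.5% and 26.1%. Lhx2, a transcription factor of the forebrain, had log2 Cy5/Cy3 ratios of 4.33 and 3.88 on the oxaliplatin arrays and 4.33 and 4.46 on the vehicle arrays. The channels are therefore called Cy5 and Cy3 below, and differences are given for the ratio and for each channel. If Cy3 held the RNA of the treated rats, every sign of a difference in the ratio between groups would turn.

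In mammals the Hox genes lie in 4 clusters, and the genes of a cluster are used along the body in the order in which they lie on the chromosome. Low paralogue numbers are used from the hindbrain backward, middle numbers from the neck and trunk, and the highest numbers in the lumbar, sacral and tail regions. In the spinal cord this code sets the columns and pools of motor neurons and contributes to sensory interneurons. Polycomb proteins keep silent the genes that a cell does not use, and Hox clusters are rich in CpG dinucleotides.

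The RefSeq table of the GRCr8 assembly held a promoter window for 13 of the 22 genes. The 250 bases before the start are shown for the 3 genes whose Cy3 signal differed most between the groups, Hoxa11, Hoxd10 and Hoxa7, and for Hoxd3, whose difference ran the other way. Capitals mark CpG dinucleotides, and each sequence runs 5′ to 3′ on the strand of the gene. The windows are chr4:82676802-82677051 on the minus strand for Hoxa11, chr3:80001697-80001946 on the plus strand for Hoxd10, chr4:82648242-82648491 on the minus strand for Hoxa7 and chr3:80045876-80046125 on the plus strand for Hoxd3.
Hoxa11: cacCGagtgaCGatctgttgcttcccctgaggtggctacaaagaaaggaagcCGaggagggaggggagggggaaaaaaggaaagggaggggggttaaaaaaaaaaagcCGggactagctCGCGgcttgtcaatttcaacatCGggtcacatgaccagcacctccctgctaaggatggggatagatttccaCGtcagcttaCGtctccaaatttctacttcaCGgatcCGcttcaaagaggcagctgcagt
Hoxd10: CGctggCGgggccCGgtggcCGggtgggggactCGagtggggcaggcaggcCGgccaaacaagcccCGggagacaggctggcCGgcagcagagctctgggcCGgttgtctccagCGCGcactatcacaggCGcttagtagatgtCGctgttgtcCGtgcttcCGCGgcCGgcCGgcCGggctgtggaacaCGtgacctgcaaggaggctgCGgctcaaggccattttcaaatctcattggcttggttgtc
Hoxa7: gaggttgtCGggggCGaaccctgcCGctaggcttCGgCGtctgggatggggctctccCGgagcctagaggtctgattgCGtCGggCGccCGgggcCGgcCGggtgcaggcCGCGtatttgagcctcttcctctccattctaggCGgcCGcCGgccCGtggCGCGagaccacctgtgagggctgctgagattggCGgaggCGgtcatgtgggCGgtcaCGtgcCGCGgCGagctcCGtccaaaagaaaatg
Hoxd3: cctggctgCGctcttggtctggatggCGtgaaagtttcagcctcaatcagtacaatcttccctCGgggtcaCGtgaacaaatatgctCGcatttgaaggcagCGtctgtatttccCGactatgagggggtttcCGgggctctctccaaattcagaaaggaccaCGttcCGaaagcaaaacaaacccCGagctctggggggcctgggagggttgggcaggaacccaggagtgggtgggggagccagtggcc
The Hoxa7 window held 28 CpG dinucleotides and that of Hoxd10 21, more than in 93.2% and 84.9% of the 33469 windows of that length in the table. Those of Hoxa11 and Hoxd3 held 11 each, more than in 66.4% of windows. Over the 13 Hox windows the median was 20, with a range of 3 for Hoxc4 to 39 for Hoxa13, and over all windows it was 5. The letters TGATNNAT, a site form bound jointly by Pbx and Hox proteins, were found on either strand in 1 of the 13 windows, that of Hoxa2, and in 7.96% of all windows. A match is a description of the letters and not of binding. These arrays measured transcripts, and no readout of the promoters was used here.

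Detection of the Hox genes was counted per channel and array. A probe counts as detected where the scanner software called a share of at least 0.5 of its spots well above background. Of the 22 genes, 20 were detected on all 4 arrays in Cy3 and 18 in Cy5, and the same 18 were detected in both. Hoxb3, a neck and hindbrain gene, was detected in Cy5 on 1 array of each group, and Hoxd12, a gene of the digits and tail end, on both oxaliplatin arrays and 1 vehicle array. Hoxb13, the last gene of its cluster and known from prostate and tail, was not well above background in either channel of any array. Hoxd13, which patterns the digits, was well above background only in Cy3 of vehicle replicate 2. These 2 genes were left out of the tests, and the other 20 entered them. All 20 also passed on either channel alone, so no gene entered through the channel in which it was high.

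Hoxc5 had 2 probes, 1 of them dimmer. The dimmer Hoxc5 probe was detected in Cy3 on 3 arrays and in Cy5 on none, and no fold is given for it or for Hoxd13. Per array, 19 to 20 of the 22 genes were detected in Cy5 and 20 to 21 in Cy3, beside 82.6% to 85.4% and 76.8% to 88.1% of all probes.

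Most Hox genes were higher in Cy3 than in Cy5, and the median Hox ratio was below 0 on every array of both groups. Of the 20 tested, 14 had a mean log2 Cy5/Cy3 ratio below 0 over the 4 arrays at an adjusted p under 0.05 (limma, Benjamini-Hochberg over 23431 genes), against 26.1% of all genes tested. In the other direction 1 Hox gene passed, against 28.5% of all genes. The median of the mean ratios was -0.44 over the Hox genes and 0.02 over all genes. With the log ratio of the scanner software the medians were -0.83 and -0.04. Array by array the Hox median was -0.48 and -0.65 for oxaliplatin and -0.38 and -0.33 for vehicle. In a bulk sample, more cells of a type and more RNA per cell cannot be told apart.

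**Figure D1:**
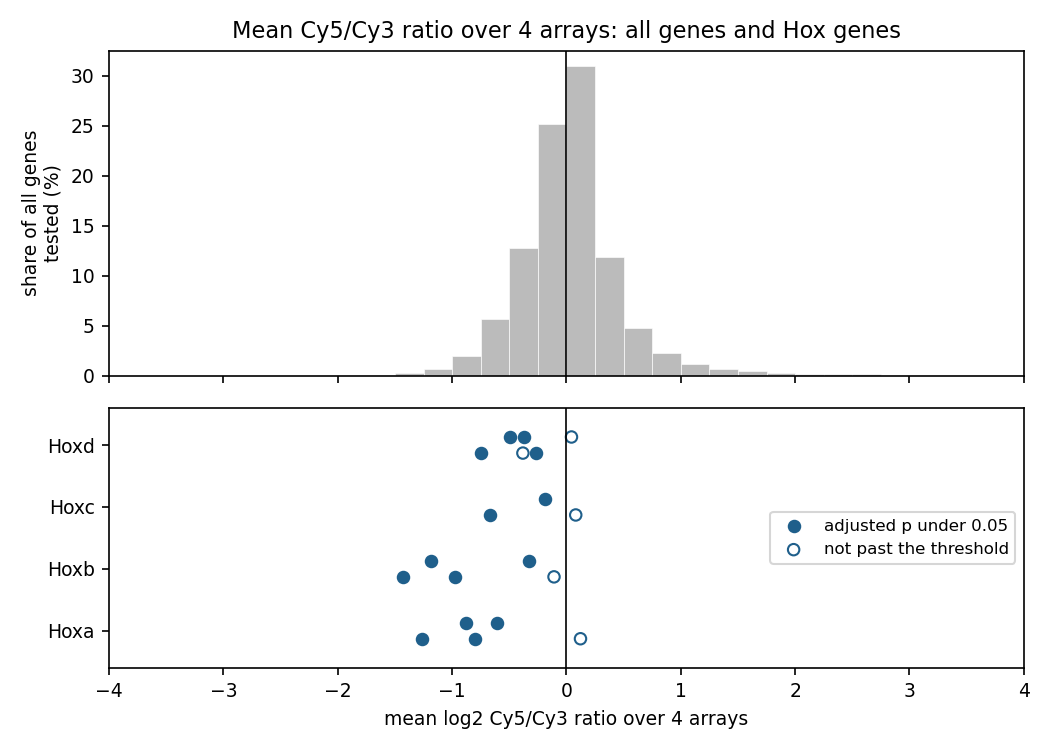
The upper panel shows the share of the 23431 genes tested (y axis, %) by mean log2 Cy5/Cy3 ratio over 4 arrays (x axis, in steps of 0.25), and the lower panel 19 tested Hox genes by cluster, with small vertical offsets for legibility. Filled points passed the threshold, and 27 genes lie beyond the axis, which ends at 4 on either side. Hoxb4 lies lowest at -1.43.

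In the Hoxa cluster 4 of 6 tested genes were higher in Cy3. Hoxa7, a gene of the trunk, had log2 ratios of -1.15 and -1.92 on the oxaliplatin arrays and -1.01 and -0.98 on the vehicle arrays. It was lower in Cy5 on every array, with a mean of -1.27 ± 0.12 (SE, n = 4 arrays, limma adjusted p = 2.08e-04), 2.41-fold. Hoxa2, which patterns the hindbrain and the hyoid arch, had ratios of -0.84 and -0.59 against -1.23 and -0.87, with a mean of -0.88 ± 0.08 (SE). Hoxa6, also a trunk gene, had ratios of -0.84 and -0.85 against -0.99 and -0.53. Both were lower in Cy5 on all 4 arrays, and the Hoxa6 mean was -0.80 ± 0.08 (SE). Hoxa11, known from the forearm, the uterus and the kidney, had ratios of -0.48 and -1.76 against -0.36 and 0.18. It spread most of the cluster and changed sign on vehicle replicate 2, and its mean was -0.61 ± 0.20 (SE, limma adjusted p = 0.037). That call was lost without vehicle replicate 1, where the mean was -0.47, and when the log ratio came from the scanner software, where it was -0.72. Without oxaliplatin replicate 2 it was -0.28, and without oxaliplatin replicate 1 -0.93. The reference table lists Hoxa10 as an older symbol of the gene named Hoxa11 here. Hoxa13, at the posterior end of the cluster, had ratios of 0.04 to 0.22 and did not pass (limma adjusted p = 0.13). With median centring its mean was -0.13.

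In the Hoxb cluster 4 of 5 tested genes were higher in Cy3, and the cluster held the lowest ratio of all members. Hoxb4, known for the neck vertebrae and for blood stem cells, had ratios of -1.44 and -1.54 on the oxaliplatin arrays and -1.33 and -1.39 on the vehicle arrays. Its values lay close together, and the mean of -1.43 ± 0.06 (SE, limma adjusted p = 6.3e-06) is 2.69-fold. Hoxb7, a gene of the trunk, had ratios of -1.07 and -1.21 against -0.81 and -0.82, with a mean of -0.98 ± 0.06 (SE). Hoxb8, which is needed for dorsal horn sensory interneurons and for normal grooming in the mouse, had ratios of -1.10 and -1.29 against -1.33 and -1.04. The groups overlapped for Hoxb8, and all 4 values were below -1, with a mean of -1.19 ± 0.07 (SE, limma adjusted p = 3.59e-05). Hoxb3 had ratios of -0.48 and -0.31 against -0.29 and -0.22, with a mean of -0.33 ± 0.06 (SE). It was near background in Cy5, and its mean was -0.75 with median centring and -1.04 with the log ratio of the scanner software. Hoxb9, a gene of the thoracic region, had ratios of -0.23 and -0.10 against 0.21 and -0.32 and did not pass (mean -0.11 ± 0.09, SE). It passed with median centring, where the mean was -0.31 (limma adjusted p = 0.032). Without vehicle replicate 2 the Hoxb9 mean was 0.024, without vehicle replicate 1 -0.24, and with the log ratio of the scanner software -0.40.

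In the Hoxc cluster, with 3 tested genes, 2 were higher in Cy3. Hoxc4, a gene of the neck, had ratios of -0.51 and -1.59 on the oxaliplatin arrays and -0.26 and -0.33 on the vehicle arrays. Oxaliplatin replicate 2 stood far below the other 3 arrays, and the mean was -0.67 ± 0.16 (SE, limma adjusted p = 0.011). Without that array the Hoxc4 mean was -0.40. Hoxc5, its neighbour, had ratios of -0.29 to -0.04 and a mean of -0.19 ± 0.06 (SE, limma adjusted p = 0.040), 1.14-fold. This call was lost with the mean over both its probes (-0.13) and without oxaliplatin replicate 2 (-0.14), vehicle replicate 1 (-0.21) or vehicle replicate 2 (-0.17). Hoxc4 and Hoxc5 both lie within the span of Hoxc6 in the reference table, and whether their probes also read Hoxc6 transcripts was not tested. Hoxc12, of the posterior end, had ratios of 0.07 and -0.03 against 0.21 and 0.08. It did not pass, and median centring turned its mean from 0.08 to -0.26.

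In the Hoxd cluster 4 of 6 tested genes were higher in Cy3. Hoxd9, used at thoracic and lumbar levels, had ratios of -0.82 and -1.08 on the oxaliplatin arrays and -0.63 and -0.48 on the vehicle arrays. The groups did not overlap, and the mean was -0.75 ± 0.07 (SE, limma adjusted p = 1.97e-04), 1.68-fold. Hoxd4, a neck gene, had ratios of -0.44 and -0.70 against -0.41 and -0.44, with a mean of -0.50 ± 0.07 (SE). Hoxd12 had ratios of -0.40 and -0.37 against -0.49 and -0.23, with a mean of -0.37 ± 0.07 (SE). Both genes were lower in Cy5 on all 4 arrays. Hoxd3, which acts with its Hoxa paralogue in the neck vertebrae, had ratios of -0.07 and -0.08 against -0.41 and -0.53, with a mean of -0.27 ± 0.06 (SE). That call was lost without vehicle replicate 2, where the mean was -0.24. The means of Hoxd3 and Hoxd12 were -0.59 and -0.71 with median centring, and -0.87 and -1.27 with the log ratio of the scanner software.

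The remaining Hoxd genes did not pass. Hoxd10, which marks lumbar motor neurons, had ratios of -0.64 and -1.22 on the oxaliplatin arrays and -0.19 and 0.52 on the vehicle arrays. It had opposite signs on the vehicle arrays, and its mean was -0.38 ± 0.14 (SE, limma adjusted p = 0.051). It passed without background correction (-0.38), without oxaliplatin replicate 1 (-0.53) and without vehicle replicate 2 (-0.56). It was nearer 0 with median centring (-0.09), without oxaliplatin replicate 2 (-0.24) and without vehicle replicate 1 (-0.21). Hoxd1, which in the mouse shapes the circuits of pain-sensing neurons, had ratios of 0.03 and 0.27 against -0.31 and 0.19. Its mean of 0.04 ± 0.09 (SE) turned to -0.081 without vehicle replicate 2, to -0.016 without oxaliplatin replicate 2 and to -0.044 with median centring.

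**Figure D2:**
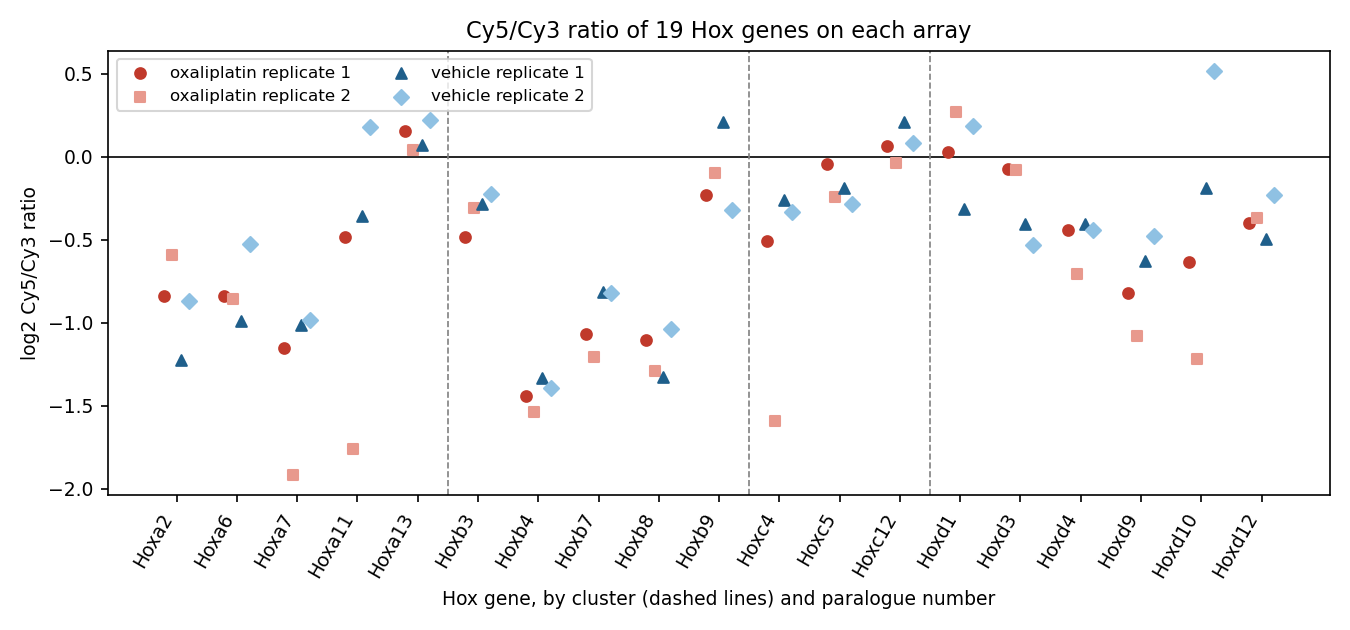
Each symbol is the log2 Cy5/Cy3 ratio (y axis) of 1 of 19 tested Hox genes on 1 array, with the genes along the x axis by cluster and paralogue number and dashed lines between clusters. Most points lie below 0, and oxaliplatin replicate 2 stands lowest for Hoxa7, Hoxa11, Hoxc4 and Hoxd10, at -1.92, -1.76, -1.59 and -1.22.

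For other called genes the size of the mean, though not its direction, depended on the scaling. Median centring in place of loess brought Hoxa7 to -0.80, Hoxb7 to -0.58 and Hoxd9 to -0.32, all nearer 0, and Hoxc5 to -0.37. The log ratio of the scanner software gave -1.61 for Hoxa6 and -0.39 for Hoxc5. All of these means passed under both scalings.

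By paralogue number, all 8 tested genes of groups 4 to 8, those of neck and trunk, were higher in Cy3, with mean ratios of -1.43 to -0.19 and a median of -0.89. Of groups 1 to 3, 3 of 5 were higher in Cy3, with a median of -0.27. Of group 9, Hoxd9 was called and Hoxb9 was not. Of groups 10 to 13, 2 of 5 were called higher in Cy3, Hoxa11 and Hoxd12, with a median of -0.37. These medians were not tested against each other. By cluster the median was -0.70 for Hoxa, -0.98 for Hoxb, -0.19 for Hoxc and -0.38 for Hoxd.

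Markers of other tissues also differed between the channels. Of 12 tested transcription factors of rostral brain, which lies in front of the Hox domain, 9 were higher in Cy5 and 2 in Cy3, with a median ratio of 2.62. Of them, Lhx2, a cortical regulator, had a mean of 4.25 ± 0.08 (SE). Of 13 genes of sensory ganglia and peripheral nerve, 12 were higher in Cy5 and 1 in Cy3, with a median of 2.73. Scn10a, a sodium channel of sensory neurons, had a mean of 5.34 and Avil, an actin-binding protein of sensory neurons, 4.91. All 8 genes of connective tissue and meninges were higher in Cy5, with a median of 1.74. Of them, the collagens Col1a2, Col3a1 and Col1a1 had means of 2.71, 2.87 and 2.51.

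The summed signal of these lists showed the same split. Rostral brain factors summed to 34471 to 38495 in Cy5 and to 10840 to 16411 in Cy3. Ganglion and nerve genes summed to 144229 to 164550 in Cy5 and 23912 to 33090 in Cy3. Connective tissue genes summed to 50890 to 52972 in Cy5 and 10094 to 12842 in Cy3. No tested gene of any list was below background on all arrays in either channel. The part of these other tissues in the Hox ratios was not tested.

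Markers of the labelled tissue were present in both channels. Of 9 genes of spinal cord glia, 6 were higher in Cy3 and 1 in Cy5, with a median of -1.08. The myelin genes Mog and Mbp had means of -1.42 and -1.08. Of 11 genes of spinal cord neurons, 5 were higher in Cy3 and 3 in Cy5, with a median of -0.06. Slc6a5, the glycine transporter of inhibitory neurons, and Lbx1, a dorsal horn regulator, had means of -1.30 and -1.22, and Syt1, a synaptic vesicle protein of neurons in general, 1.28. Kidney and skeletal muscle, which also use Hox genes, had medians of 0.14 (2 of 6 higher in Cy5) and 0.15 (3 of 7 higher in Cy5, 1 in Cy3). These counts are to be read against the 28.5% of all genes that were higher in Cy5 and the 26.1% higher in Cy3.

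**Figure D3:**
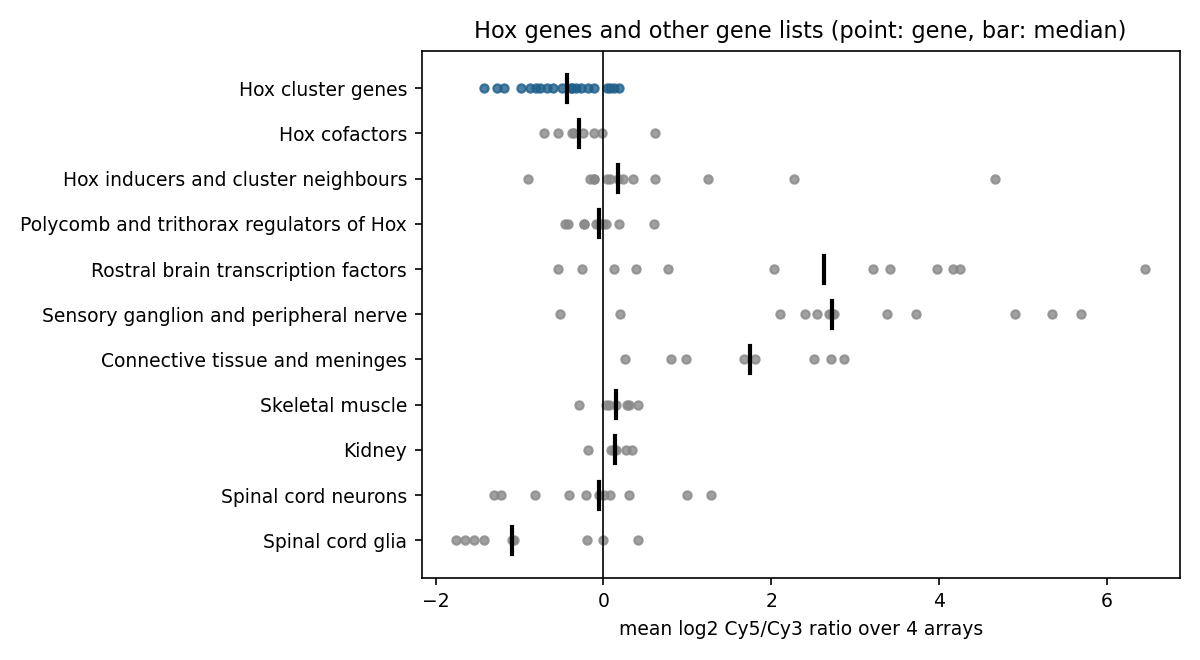
Each point is the mean log2 Cy5/Cy3 ratio over 4 arrays (x axis) of 1 tested gene, with the lists on the y axis and a bar at each median. The Hox genes (median -0.44) lie left of 0, and the rostral brain (2.62), ganglion and nerve (2.73) and connective tissue (1.74) lists right of it.

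Partners and regulators of Hox genes were found higher in either channel, as were all genes (28.5% higher in Cy5 and 26.1% in Cy3). Of 8 cofactors, homeodomain proteins that bind DNA with Hox proteins, 5 were higher in Cy3 and 1 in Cy5, with a median ratio of -0.29. Pbx3 and Meis1 had means of -0.71 and -0.54. Of 13 genes that induce Hox clusters or lie beside them, 6 were higher in Cy5 and 2 in Cy3, with a median of 0.18. Egr2, a hindbrain and Schwann cell regulator, had a mean of 4.66, Cyp26b1, which breaks down retinoic acid, 2.27 and Gdf11, a signal that sets posterior Hox expression, -0.90. Of 11 Polycomb and trithorax genes, 4 were higher in Cy3 and 1 in Cy5, with a median of -0.05. Ezh2 and Kdm6b, which add and remove the histone mark of Polycomb, had means of -0.46 and -0.43, and Cbx2, which reads it, 0.60.

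The comparison of oxaliplatin with vehicle asks whether Hox transcripts differed after the drug. No Hox gene passed the test in the ratio, in Cy5 or in Cy3 (limma, 0 of 20), and no gene of the array did (0% of 23431 genes in each). At an unadjusted p under 0.05 the ratio was lower on the oxaliplatin arrays for 5 Hox genes, against 5.79% of all genes, and higher for 1, against 8.68%. In Cy5, 4 of 20 had such a p, against 20.2% of all genes, and in Cy3 2 of 20, against 20.7%. The 2 arrays of each group did not overlap in the ratio for 13 Hox genes. It was lower on both oxaliplatin arrays for 10, against 22% of all genes, and higher for 3, against 26.8%.

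Hoxd10 had the largest difference in the ratio, -1.09 ± 0.27 (SE, n = 2 arrays per group, limma adjusted p = 0.30). Its Cy3 log2 signals were 13.11 and 13.69 on the oxaliplatin arrays and 12.50 and 11.85 on the vehicle arrays, and its Cy5 signals 12.48 and 12.47 against 12.31 and 12.37. Cy3 thus spread over more than 1 log2 unit where Cy5 hardly moved, and the groups did not overlap in either. The difference was 1.23 ± 0.30 (SE) in Cy3, 2.34-fold (limma adjusted p = 0.17), and 0.13 ± 0.07 (SE) in Cy5. In Cy3 it was 1.55 without vehicle replicate 1. In the ratio it was -1.39 without oxaliplatin replicate 1 and -0.80 without oxaliplatin replicate 2. Each of these fits leaves 1 array in a group.

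Hoxa11 showed a like pattern with 1 array far out. Its Cy3 signals were 10.43 and 11.78 on the oxaliplatin arrays and 10.15 and 9.43 on the vehicle arrays, and its Cy5 signals 9.95 and 10.02 against 9.79 and 9.61. Oxaliplatin replicate 2 was highest in both channels. The difference was 1.31 ± 0.48 (SE, limma adjusted p = 0.22) in Cy3, 0.28 ± 0.10 (SE, adjusted p = 0.24) in Cy5 and -1.03 ± 0.39 (SE, adjusted p = 0.32) in the ratio. Without oxaliplatin replicate 1 it was -1.67 in the ratio and 1.99 in Cy3, and without vehicle replicate 1 it was 0.37 in Cy5. Without oxaliplatin replicate 2 the difference was 0.63 in Cy3 and -0.39 in the ratio. Each of these fits leaves 1 array in a group.

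Hoxa7 had Cy3 signals of 14.45 and 15.36 on the oxaliplatin arrays and 14.36 and 14.16 on the vehicle arrays, against Cy5 signals of 13.30 and 13.44, and 13.34 and 13.18. Oxaliplatin replicate 2 stood apart from the other 3 in Cy3 only. The difference was 0.65 ± 0.31 (SE) in Cy3 and -0.54 ± 0.24 (SE, limma adjusted p = 0.36) in the ratio. Without oxaliplatin replicate 1 it was 1.101 in Cy3 and -0.92 in the ratio. Without oxaliplatin replicate 2 the difference was 0.19 in Cy3 and -0.16 in the ratio.

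Hoxd9 and Hoxb7 had smaller differences in the ratio, of -0.39 ± 0.14 (SE, limma adjusted p = 0.31) and -0.32 ± 0.12 (SE, limma adjusted p = 0.31). Hoxd9 had Cy3 signals of 14.14 and 14.38 against 14.11 and 13.77, and Cy5 signals of 13.32 and 13.30 against 13.48 and 13.29. For Hoxb7 the Cy3 signals were 13.95 and 14.30 against 13.82 and 13.78. Both were higher in Cy3 on both oxaliplatin arrays, by 0.32 ± 0.19 and 0.33 ± 0.17 (SE). With median centring the difference of Hoxb7 in the ratio was -0.19.

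Hoxc4 differed in the ratio by -0.76 ± 0.32 (SE, limma adjusted p = 0.34). Its Cy3 signals were 9.42 and 10.38 against 9.77 and 9.33, so that oxaliplatin replicate 2 was highest and the groups overlapped. In Cy5 the signals were 8.91 and 8.78 against 9.51 and 8.998, lower on both oxaliplatin arrays. The difference in the ratio was -1.30 without oxaliplatin replicate 1 and -0.21 without oxaliplatin replicate 2.

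Hoxd3 ran the other way, with a ratio higher on the oxaliplatin arrays by 0.39 ± 0.12 (SE, limma adjusted p = 0.30). Its Cy3 signals were 6.91 and 6.89 against 7.16 and 7.21, and its Cy5 signals 6.84 and 6.81 against 6.75 and 6.68. It was the only member lower in Cy3 on both oxaliplatin arrays, against 31.1% of all genes. With median centring the difference in the ratio was -0.034, and with the log ratio of the scanner software 0.82.

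In Cy5 the smallest p-values belonged to Hoxa2, Hoxa11 and Hoxd12. Hoxa2 had Cy5 signals of 8.69 and 8.61 on the oxaliplatin arrays and 8.39 and 8.36 on the vehicle arrays, a difference of 0.28 ± 0.07 (SE, limma adjusted p = 0.20). Its Cy3 signals of 9.52 and 9.20 against 9.61 and 9.22 overlapped. Hoxd12 had Cy5 signals of 6.67 and 6.72 against 6.50 and 6.48, a difference of 0.20 ± 0.07 (SE, limma adjusted p = 0.24), with 1 vehicle array not well above background. With median centring it was 0.027. Hoxb8, at -0.23 ± 0.08 (SE, limma adjusted p = 0.24), had 9.53 and 9.66 against 9.84 and 9.81. In Cy5 the groups did not overlap for 10 Hox genes, 6 higher on the oxaliplatin arrays, against 29.3% of all genes, and 4 lower, against 30%.

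**Figure D4:**
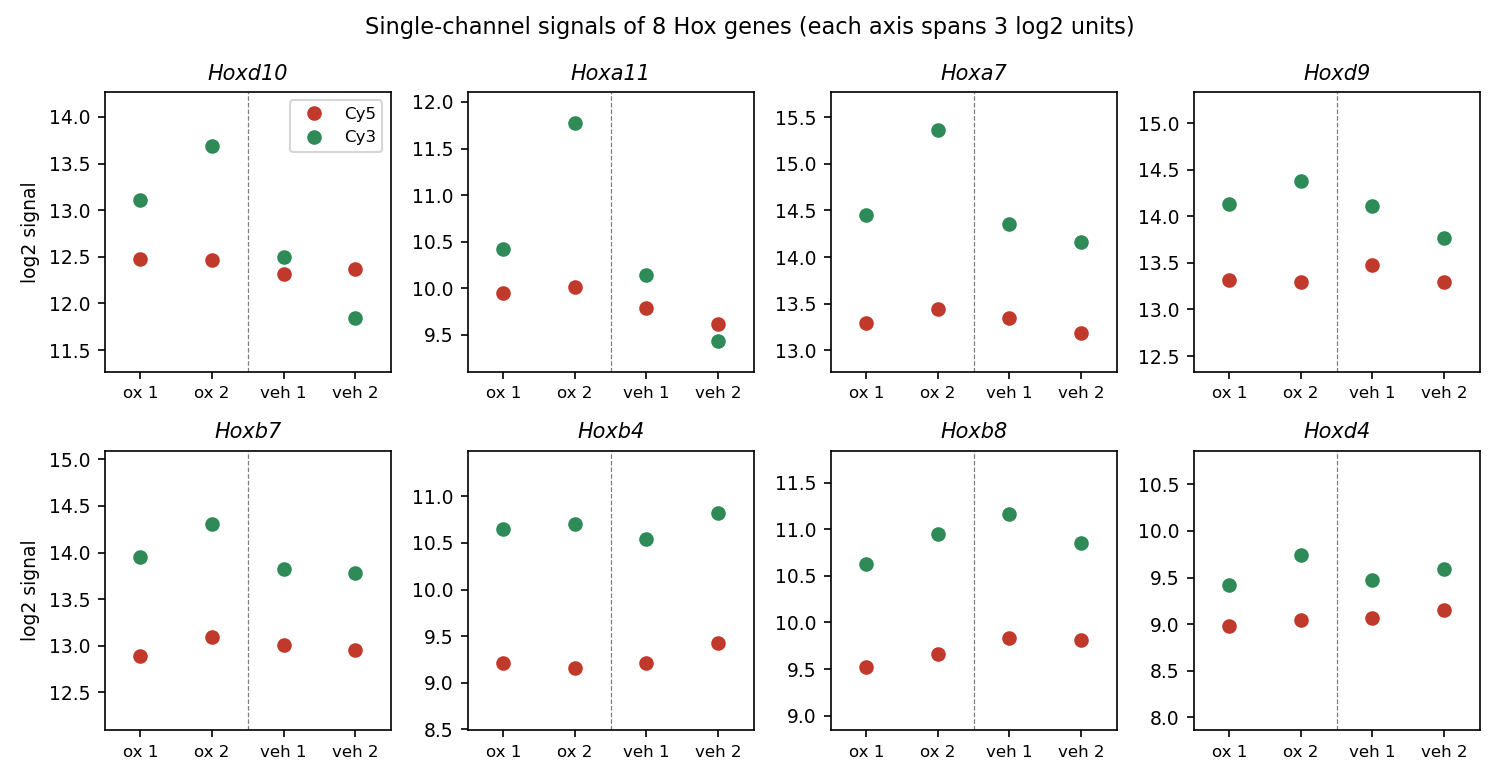
Points are log2 signals (y axis) of 8 Hox genes in Cy5 and Cy3 on oxaliplatin (ox) and vehicle (veh) replicates 1 and 2 (x axis), and each panel spans 3 log2 units. For Hoxd10, Cy3 ranges from 11.85 to 13.69 while Cy5 stays between 12.31 and 12.48, and Hoxb4 is higher in Cy3 on every array.

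In Cy3, the channel that the labels give to untreated rats in both groups, 9 Hox genes were higher on both oxaliplatin arrays, against 26.7% of all genes. They were Hoxa6, Hoxa7, Hoxa11, Hoxb3, Hoxb7, Hoxc12, Hoxd9, Hoxd10 and Hoxd12. Of 20 tested Hox genes, 9 had the order oxaliplatin replicate 2, oxaliplatin replicate 1, vehicle replicate 1, vehicle replicate 2 from high to low. This held for 14.5% of all genes, and the order was picked after its values were seen. They are the same 9 genes, as the order itself requires higher values on both oxaliplatin arrays. Of all genes, 6247 met that condition and 3409 had the order. Among the 9, the dim genes Hoxc12, Hoxd12 and Hoxb3 had Cy3 signals of 6.865, 7.09 and 6.89 on oxaliplatin replicate 2. On oxaliplatin replicate 1 they were 6.862, 7.06 and 6.84, so small gaps set that part of their order. In Cy5 the same order was found for Hoxa11, Hoxb3 and Hoxd12. Of these 9 genes none has a paralogue number below 3, and 5 are of groups 9 to 13. Differences in Cy3 had a median of 0.22 over the 5 tested genes of groups 10 to 13 and 0.17 over the 8 of groups 4 to 8. Over the 5 of groups 1 to 3 the median was -0.15, and over all genes -0.02. These medians were not tested against each other.

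The summed Cy3 signal of the tested Hox genes, which the brightest probes dominate, was 73302 and 108281 on the oxaliplatin arrays and 67798 and 57880 on the vehicle arrays. In Cy5 it was 38636 and 40822 against 40519 and 37674. The range over the 4 arrays was wider in Cy3 than in Cy5 for 15 of 20 Hox genes, near the 75.1% of all genes for which that held. Some summed signals of other lists also differed between the groups in Cy3. Glia genes summed to 442362 to 445942 in Cy3 on the oxaliplatin arrays and 546372 to 603981 on the vehicle arrays, while neuron genes summed to 206732 to 207042 and 205996 to 206932. Rostral brain factors summed to 10840 to 11262 against 12963 to 16411, ganglion and nerve genes to 23912 to 25024 against 32055 to 33090, and connective tissue genes to 10390 to 12842 against 10094 to 10756. Single bright genes weigh on these sums. In Cy3, Otx1 was the brightest rostral brain factor, at log2 signals of 13.07 and 12.89 against 13.27 and 13.73. Sox10 was the brightest ganglion and nerve gene, at 13.28 and 12.89 against 13.86 and 14.09. Median Cy3 differences were 0.02 for rostral brain, 0.03 for ganglion and nerve, 0.10 for connective tissue, -0.07 for glia and 0.15 for neurons. The part of these cells, and of the low raw Cy3 signal of oxaliplatin replicate 2, in the Hox differences was not tested.

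**Figure D5:**
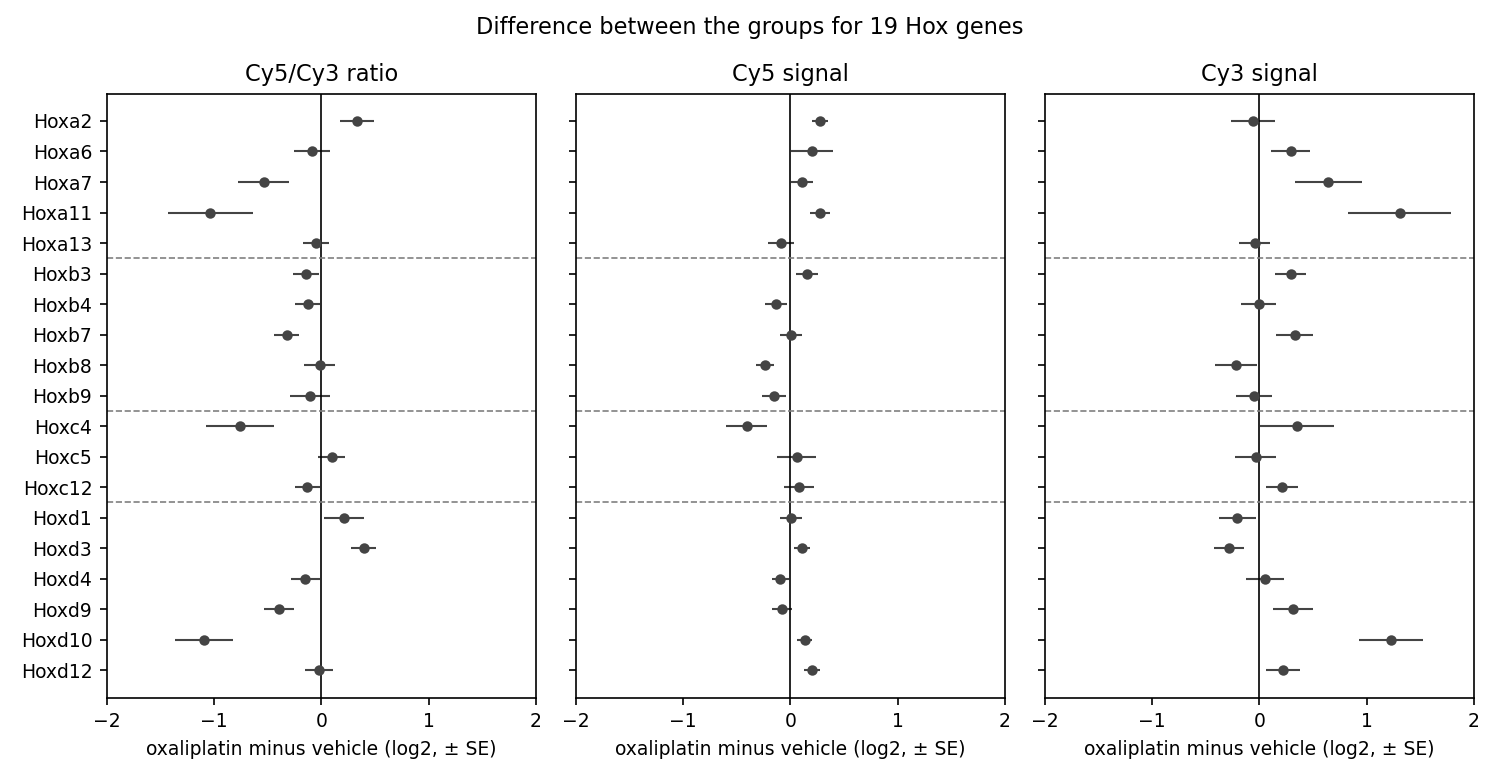
Points are oxaliplatin minus vehicle differences (x axis, log2, bars ± SE, 2 arrays per group) in the ratio, Cy5 and Cy3 for 19 tested Hox genes (y axis, dashed lines between clusters). Hoxa11 (1.31) and Hoxd10 (1.23) stand out in Cy3, while differences in Cy5 lie between -0.41 and 0.28.

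With all 4 arrays and no replicate block, neither the Hox genes above nor the remaining ones passed the threshold between the groups. Hoxb4 differed by -0.13 ± 0.11 (SE) in the ratio and by -0.01 ± 0.16 (SE) in Cy3, Hoxb8 by -0.02 ± 0.15 (SE) in the ratio. Hoxa6, Hoxa13, Hoxb3, Hoxb9, Hoxc5, Hoxc12, Hoxd1, Hoxd4 and Hoxd12 had differences of -0.15 to 0.21 in the ratio, with limma adjusted p of 0.62 to 0.96. Hoxa2 differed by 0.33 ± 0.16 (SE, limma adjusted p = 0.40) in the ratio, and by 0.16 to 0.51 without 1 array. No cofactor, inducer, neighbour, Polycomb or trithorax gene passed in the ratio, with medians of 0.11, -0.02 and -0.01 for the 3 lists, against 0.01 over all genes and -0.12 over the Hox genes. With median centring the Hox median was -0.32 and that of all genes -0.03. At an unadjusted p under 0.05 there were 0 of 8 cofactors, 1 of 13 inducers and neighbours, Gbx2, a gene of the midbrain and hindbrain border, with a difference of -0.33 ± 0.12 (SE), and 1 of 11 Polycomb and trithorax genes, Ring1, higher by 0.39 ± 0.11 (SE).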

How the data were processed

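The scanner files hold, per the file headers, the median pixel intensity of each spot and its local background in both channels, and Agilent's own log10 ratio of Cy5 over Cy3. The deposited value table, whose scale and direction are unstated, matched that log10 ratio within 0.005. The flags deposited beside them, per the file headers, mark other properties of a spot (well above background, saturated, outlier). Feature Extraction of Agilent is version 10.7.1.1 in the headers, against 8.5.1.1 per the submitters' processing notes. Groups came from the sample titles.

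Signals were corrected with normexp (offset 50) and ratios normalised by loess within arrays in limma 3.58.1 under R 4.3.3, with control spots (4259 of 62976) left out. Outlier spots were left out and spots of a probe averaged. Of 30367 probes, 18758 had a symbol through their accession. Probes well above background on at least 2 arrays in either channel were kept, and the brightest probe on average stood for its gene, giving 23431 genes, 14242 with a symbol. Single channels were normalised by Aquantile. Differences were tested two-sided by lmFit and eBayes (residual df 2, prior df 4.73 for the ratio, 2.28 for Cy5 and 3.53 for Cy3) and p-values were adjusted by Benjamini-Hochberg over every gene tested (threshold 0.05). The 4 tests were oxaliplatin minus vehicle in the ratio, Cy5 and Cy3, and the mean ratio over the arrays against 0. The step was tested on simulated data.

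Named members were all that passed a test (up to 12 per test by p), the 3 smallest p-values where fewer passed, and the highest and lowest mean ratio of each cluster. Of other lists, up to 3 genes by p were named, plus Scn10a; Gbx2 and Ring1 fall under the same rule. A few genes falling under these rules are left out of the text and the gene-level plots, though they stay in the counts and medians. The members and lists were chosen with earlier results of these data known. Promoters are RefSeq's, GRCr8, used for names and sequence; the array's own positions were not used. Correlations of the ratios between arrays over genes were 0.753 to 0.927. The number of arrays limits the precision.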

Additional observations from a re-analysis of the deposited data

How the results depend on the processing

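The 14 Hox genes called higher in Cy3 numbered 12 to 15 without 1 array, and Hoxa2, Hoxa6, Hoxa7, Hoxb3, Hoxb4, Hoxb7, Hoxb8, Hoxc4, Hoxd4, Hoxd9 and Hoxd12 were called under every alternative run. The count higher in Cy5 went from 1 to 0 with median centring and with the replicate block, and was 0 to 1 without 1 array. Median centring turned the mean ratios of Hoxa13 to -0.13, Hoxc12 to -0.26 and Hoxd1 to -0.044, and the group difference of Hoxd3 to -0.034. Leaving out 1 array gave mean ratios of -0.081 to 0.17 for Hoxd1 and -0.24 to 0.024 for Hoxb9. The cause was not tested. Hox genes called lower in the oxaliplatin ratio numbered 0 to 4 without 1 array. The 4, called without oxaliplatin replicate 1, were Hoxa7, Hoxa11, Hoxc4 and Hoxd10, when 1179 genes passed on the array. Counts called higher were 0 to 2 in Cy5 (5358 genes on the array) and 0 to 1 in Cy3 (2151 genes), and the higher count of each arose without vehicle replicate 1. The gene totals for the array given beside these runs count both directions, while each Hox count is of a single direction. Those totals are therefore no background share for the Hox counts. In a run without 1 array, the lone array left in a group is assumed to vary like the other group.

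Same-numbered arrays deviated with correlations of -0.219 in the ratio, 0 in Cy5 and -0.204 in Cy3. These values do not settle whether such arrays share more than a number. With the replicate block 14 Hox genes were called higher in Cy3 and 0 passed between the groups; the call of Hoxc5 was lost and Hoxd10 was added. The crossed pairing, chosen after seeing the data, called 2 Hox genes lower in the ratio, Hoxa11 and Hoxd10, of 179 called lower among 23431 genes tested. Signal over background limits Hoxb3, Hoxc12, Hoxd3 and Hoxd12, which are dim, Hoxa6 in Cy5, and Hoxb13 and Hoxd13. Hoxc12 had log2 signals of 6.63 to 6.96 in Cy5 and 6.55 to 6.86 in Cy3, and Hoxa6 6.60 to 7.18 in Cy5.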
